A study of Mus musculus with 30 samples.

Results

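Hippocampal RNA from 6 mice labelled ChowCR was compared with hippocampal RNA from 6 mice labelled Chow, 12 of the 30 libraries of a study of low protein diets and caloric restriction in ageing mice. Group membership was taken from the sample titles, and the columns of the expression table were matched by the number that ends each title. ChowCR is read here as caloric restriction on chow, from the study's title, and the labels used here give neither the degree nor the length of the restriction nor the make-up of the chow. Each group held 3 males and 3 females aged 15 months, with whole hippocampus as the tissue and no genotype or strain named in the labels. The series design calls the 6 samples of a diet biological replicates. The other 18 libraries, from diets labelled 5% P, 10% P and 15% P, entered the fits as a shared estimate of spread. The numbers ending the titles ran from 97.3 to 122.3 in ChowCR and from 1.3 to 50.3 in Chow. The labels do not say what these numbers mean, and any batch running along them cannot be told apart from diet.

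Caloric restriction, a lowered food intake without malnutrition, extends lifespan in many laboratory animals. It lowers insulin and insulin-like growth factor signalling and mTOR activity in several tissues, raises the use of fatty acids and ketone bodies, and activates AMPK, sirtuins and Foxo factors. In the rodent hippocampus, which forms new memories, it has been studied for effects on synapses, neurotrophins, inflammation and new neurons.

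Values were FPKM per transcript, that is, fragments scaled to transcript length and to the mapped total of the library, as deposited by the authors. A library lists some transcripts and leaves others out, and an unlisted transcript is not necessarily a low one. Grb2, for example, is unlisted in 5 ChowCR libraries and at 30.1 FPKM in the other. ChowCR libraries listed 19681 to 21853 transcripts and Chow libraries 20717 to 21595. The means of 21110 ± 780 and 21120 ± 361 (SD, n = 6 each) did not differ beyond the spread (exact permutation test, two-sided, p = 0.985). ChowCR replicate 1 listed the fewest. Without it the ChowCR mean was 21400 ± 384 (SD), and the exact permutation test gave p = 0.229. FPKM keeps no read depth, so the depth behind each value is unknown. Transcripts were tested where all 30 libraries listed them at a mean of at least 1 FPKM, which left 4447. Gene sums add the listed transcripts of a gene, and 8130 of them had a mean of at least 1. Of these, 3124 had at least 90 percent of their sum in transcripts listed in all 30 libraries and are called complete below. The choroid plexus transcript Ttr, a marker of tissue next to the hippocampus, ranged from 13.6 to 7513 FPKM in ChowCR and from 18.7 to 6558 FPKM in Chow and was high and low in both groups. One library, Chow replicate 1, stood apart from its group. Its Gfap level was the lowest, at 28.2 FPKM against 94.6 to 124 FPKM in the other 5 Chow libraries. Several results that this library moves are given with and without it.

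Few transcripts separated the diets. Of the 4447 transcripts, 2 passed an adjusted p of 0.05 as higher in ChowCR (0.0450 percent) and 0 as lower (0 percent), in limma's test with Benjamini-Hochberg adjustment, while 303 had an unadjusted p under 0.05, of which 186 were higher and 117 lower. Among gene sums, 3 were called higher (0.0369 percent) and 3 lower (0.0369 percent). Without Chow replicate 1, 4 were called higher and 0 lower, with 541 at an unadjusted p under 0.05 in limma. No lower call was left either without Chow replicate 5 or 6, or without any one of ChowCR replicates 1 to 4. Among the 3124 complete gene sums, 2 were called higher (0.0640 percent) and 0 lower (0 percent), with 225 at an unadjusted p under 0.05. The median log2 difference was 0.017 over complete gene sums and 0.022 over all gene sums, and the value over all gene sums was 0.0017 without Chow replicate 1 and 0.0054 with median-ratio scaling. The middle 90 percent of complete gene sums lay between -0.85 and 0.95. Over all gene sums, an unadjusted p under 0.05 was reached by 309 higher (3.80 percent) and 220 lower (2.71 percent). Over complete gene sums it was reached by 142 higher (4.55 percent) and 83 lower (2.66 percent). In bulk tissue, fewer cells of a type and less RNA per cell cannot be told apart.

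Map1s, a member of the MAP1 family of microtubule-binding proteins, rose in ChowCR. Its only transcript in the table (ENSMUST00000019405.2, 7 exons on the plus strand of chromosome 8 from 70905932 to 70917527 in GRCm38) stood at 14.3, 16.35, 14.96, 15.9, 13.2 and 13.5 FPKM in ChowCR, against 11.2, 7.94, 10.4, 8.32, 9.26 and 8.42 FPKM in Chow. Every ChowCR library lay above every Chow library, in both sexes. The mean was 14.7 ± 1.27 FPKM in ChowCR and 9.25 ± 1.28 FPKM in Chow (SD, n = 6 each), a ratio of 1.59 and a log2 difference of 0.65 (SE 0.11), with a limma adjusted p of 0.00604 over transcripts and 0.0262 over gene sums. The 18 libraries of the P diets ran from 8.46 to 13.9 FPKM with a median of 11.75, between the group means.

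Gm15525, a predicted gene whose role is not known, rose as well, from a very low level. Its transcript was at 2.605, 3.87, 10.1, 2.91, 2.55 and 1.93 FPKM in ChowCR, against 0.275, 0.0194, 0.433, 0.298, 0.1955 and 0.425 FPKM in Chow. ChowCR replicate 3 stood well above the other 5 ChowCR libraries, and all 6 lay above all Chow libraries. The log2 difference on the log2(FPKM + 0.5) scale was 2.37 (SE 0.38), with a limma adjusted p of 0.00592 over transcripts, and this scale understates the change of so low a transcript. The P diets ran from 0.198 to 2.78 FPKM. The diet means were 3.99 FPKM in ChowCR, 0.2745 in Chow, 1.52 in 5% P, 1.35 in 10% P and 0.691 in 15% P. The high ChowCR values thus helped Gm15525 past the filter of a mean of 1 FPKM. With no minimum mean it was also called.

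Both transcripts kept an adjusted p under 0.05 without any 1 of the 12 libraries (highest values 0.0324 for Map1s and 0.0321 for Gm15525). Both calls rest on the spread estimated over all 30 libraries: with the 12 libraries alone the differences were the same in size and the limma adjusted p-values were 0.231 for Map1s and 0.106 for Gm15525, so neither passed. With 3 animals a group, females alone gave 0.0894 for Map1s and 0.255 for Gm15525, and males alone 0.765 and 0.235. As a gene sum, adjusted over more features, Map1s reached up to 0.0791 when 1 library was left out, and lost its call without any one of ChowCR replicates 1 to 4 or of Chow replicates 2, 4, 5 and 6. Median-ratio scaling of the libraries also ended this call, at 0.0504.

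**Figure D1:**
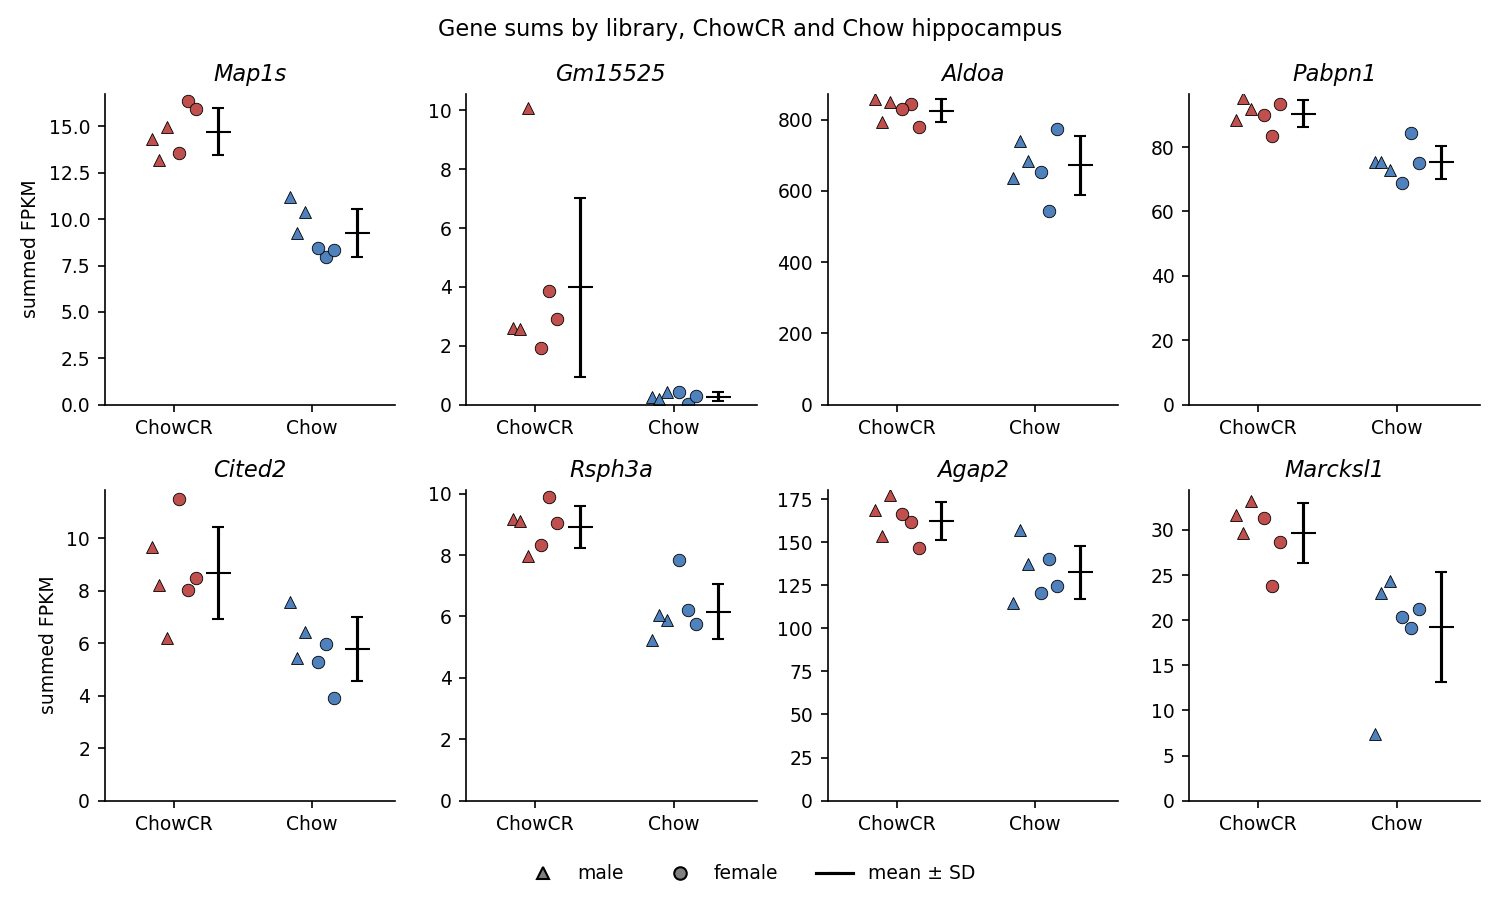
Summed FPKM (vertical axes, from 0) of 8 genes in each library, ChowCR left of Chow, with males as triangles, females as circles and the mean ± SD beside each group of 6. The groups do not overlap for Map1s, Gm15525, Aldoa and Rsph3a, and overlap by 1 or more libraries for Pabpn1, Cited2, Agap2 and Marcksl1.

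The genes next in order of p did not pass. Every ChowCR library was above every Chow library for 28 transcripts (0.630 percent), and below for 8 (0.180 percent). The same held for 24 complete gene sums above (0.768 percent) and 7 below (0.224 percent). Aldoa, the glycolytic enzyme that splits fructose 1,6-bisphosphate, summed to 778 to 856.5 FPKM in ChowCR (median 836) and to 543 to 773 FPKM in Chow (median 668). Its groups did not overlap, and its log2 difference of 0.31 (SE 0.066) had a limma adjusted p of 0.111 over gene sums and 0.0878 over complete ones. The limma adjusted p over gene sums was 0.031 without Chow replicate 4, the highest Chow library. With another of the 12 libraries left out it reached up to 0.267.

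Pabpn1, which binds poly(A) tails in the nucleus and controls their length, summed to 83.3 to 95.3 FPKM in ChowCR and 68.8 to 84.4 FPKM in Chow, with 1 Chow library inside the ChowCR range (log2 difference 0.26, limma adjusted p 0.286). Cited2, which binds CBP and p300 and so restrains hypoxia-induced transcription, was at 6.21 to 11.5 FPKM in ChowCR and 3.92 to 7.58 FPKM in Chow (log2 difference 0.55). Agap2, a GTPase-activating protein of neurons that enhances PI3-kinase signalling, was at 147 to 177 FPKM in ChowCR and 115 to 157 FPKM in Chow (log2 difference 0.30). Their groups overlapped, and neither Cited2 nor Agap2 passed, with a limma adjusted p of 0.291 for each. The only Cited2 transcript, adjusted over transcripts, had a limma adjusted p of 0.145. It was 0.0265 without ChowCR replicate 3, 0.0474 without Chow replicate 1 and up to 0.317 without another library.

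Rsph3a, a radial spoke protein of motile cilia, was at 7.97 to 9.90 FPKM in ChowCR and 5.22 to 7.85 FPKM in Chow (log2 difference 0.51, limma adjusted p 0.297). It has a close copy, Rsph3b, and reads may be split between them. Igsf8, an immunoglobulin superfamily membrane protein that partners tetraspanins, summed to 55.6 to 69.35 FPKM in ChowCR and 49.1 to 55.4 FPKM in Chow (log2 difference 0.25, limma adjusted p 0.376). For both genes all 6 ChowCR libraries were above all Chow libraries.

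Marcksl1, an actin-binding relative of MARCKS, was at 23.8 to 33.2 FPKM in ChowCR and 7.34 to 24.3 FPKM in Chow (log2 difference 0.70, limma adjusted p 0.297). Its lowest value belonged to Chow replicate 1, without which the log2 difference was 0.43 and the limma adjusted p 0.165. Slc32a1, the vesicular GABA and glycine transporter of inhibitory neurons, was at 7.07 to 26.9 FPKM in ChowCR (median 23.4) and 2.83 to 18.3 FPKM in Chow (median 9.91). In ChowCR 5 of the 6 libraries were above every Chow library, and the log2 difference was 1.25 (SE 0.37, limma adjusted p 0.376).

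On the lower side no complete gene passed. Csnk1a1, casein kinase 1 alpha, summed to 39.5 to 44.9 FPKM in ChowCR and 44.5 to 57.2 FPKM in Chow (log2 difference -0.27, limma adjusted p 0.494). Pcmtd1, a relative of the enzyme that repairs damaged aspartate residues, summed to 15.3 to 19.02 FPKM in ChowCR and 19.2 to 24.1 FPKM in Chow, with no overlap (log2 difference -0.34, limma adjusted p 0.494). Ccng1, cyclin G1, a p53 target, was at 12.8 to 18.9 FPKM in ChowCR and 17.3 to 24.9 FPKM in Chow (log2 difference -0.38). Spin1, a reader of histone methylation, was at 11.99 to 28.04 FPKM in ChowCR and 24.6 to 37.3 FPKM in Chow (log2 difference -0.57). For Ccng1 and Spin1 the ranges overlapped, with limma adjusted p-values of 0.494 and 0.431.

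Coa3 and Syngr1 had large negative log2 differences, and both were split within Chow. In both genes the ChowCR libraries kept to the low level. Coa3, an assembly factor of cytochrome c oxidase, was at 7.325, 6.65, 7.36, 7.54, 13.1 and 10.3 FPKM in ChowCR, against 41.7, 55, 8.12, 43.1, 7.40 and 44.7 FPKM in Chow. Syngr1, a synaptic vesicle membrane protein, summed to 20.6, 12.04, 14.8, 12.35, 13.65 and 9.67 FPKM in ChowCR, against 60.8, 49.8, 14.3, 11.4, 64.8 and 75.35 FPKM in Chow. For each gene 4 Chow libraries were high and 2 stood at the ChowCR level. The 2 low libraries were replicates 3 and 5 for Coa3, both males, and replicates 3 and 4 for Syngr1, a male and a female. All 3 Chow females were thus high for Coa3. The limma adjusted p of the Coa3 sum was 0.142 in females alone and 0.942 in males alone. The P diets spanned both levels, from 5.73 to 51.1 FPKM for Coa3 and from 9.33 to 64.3 FPKM for Syngr1. Their medians, 8.54 FPKM for Coa3 and 12.5 FPKM for Syngr1, lay within the ChowCR ranges. The log2 differences were -1.54 (SE 0.49) and -1.41 (SE 0.41), with limma adjusted p-values of 0.453 and 0.376.

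**Figure D2:**
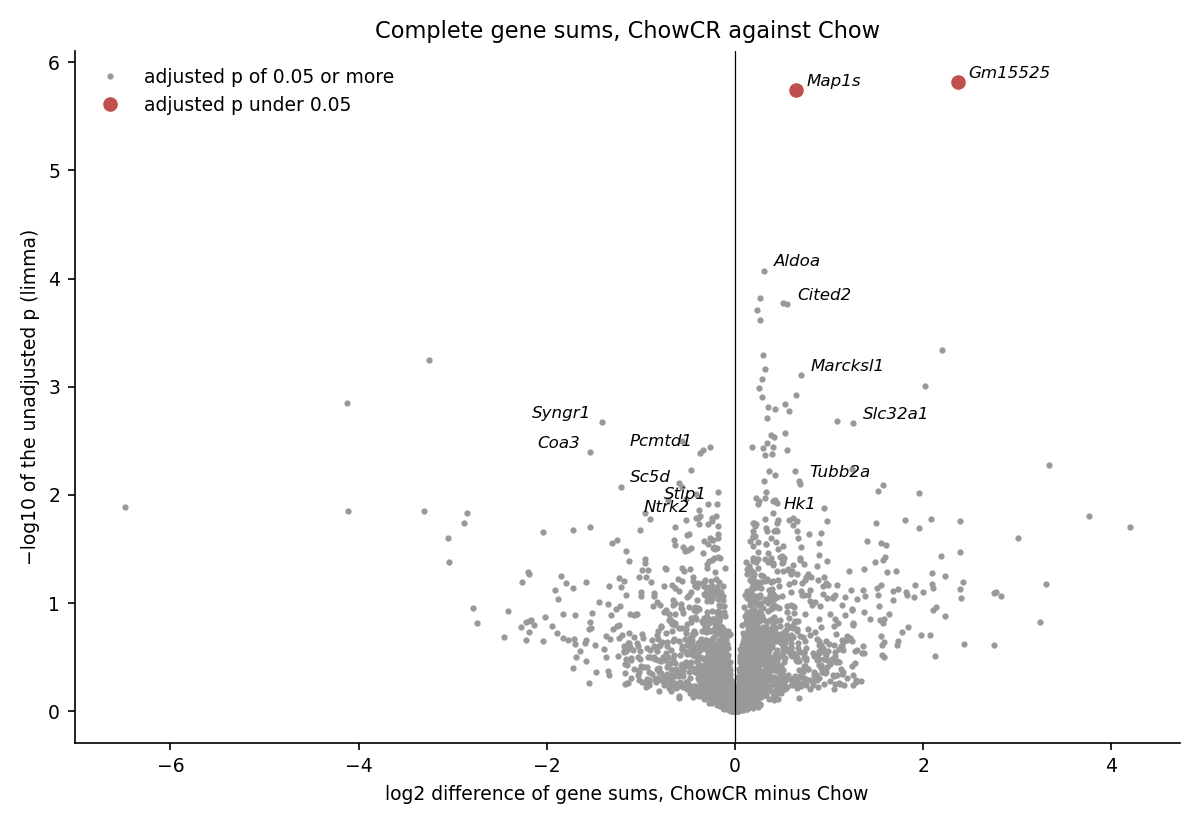
Each of the 3124 complete gene sums is a point, placed by its log2 difference (ChowCR minus Chow, horizontal) and by the −log10 of its unadjusted limma p (vertical), with some of the named genes labelled. Only Map1s and Gm15525, in red, have an adjusted p under 0.05, and both lie to the right of 0.

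Several transcripts with small p differed more than the sum of their gene, so that the share of the isoform was unequal between the groups, and shares were not tested. The protein-coding Pabpn1 transcript ENSMUST00000022808.11 (chromosome 14, 54894148 to 54898169, plus strand, GRCm38) was at 32.3 to 36.5 FPKM in ChowCR and 19.99 to 28.9 FPKM in Chow, with no overlap. It made up 37.95 percent of the Pabpn1 sum in ChowCR and 33.15 percent in Chow, and its log2 difference was 0.46 (SE 0.10), against 0.26 for the sum and 0.12 for the transcript ENSMUST00000116476.6, which holds most of the sum. The limma adjusted p of ENSMUST00000022808.11 was 0.101. It was 0.0466 without Chow replicate 1 and up to 0.226 without another library.

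Rbm42, an RNA-binding protein, differed in the same way. The transcript ENSMUST00000042726.10 was at 10.02 to 13.96 FPKM in ChowCR and 4.92 to 9.19 FPKM in Chow, with no overlap, and held 51.9 percent of the sum in ChowCR and 38.9 percent in Chow. Its log2 difference was 0.76 (limma adjusted p 0.198), against 0.02 for the other main transcript, ENSMUST00000108141.1, and 0.38 for the sum. For Akr1a1, an aldehyde reductase, the difference sat in a processed transcript without a coding annotation, at 6.29 to 9.90 FPKM in ChowCR and 3.66 to 7.26 FPKM in Chow (log2 difference 0.58). The main coding transcript of Akr1a1 differed by 0.05, and it held 93.4 percent of the sum in ChowCR and 95.3 percent in Chow.

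Among transcripts with a negative difference, retained-intron forms appeared for Ogt, Pcmtd1 and Far1. Ogt, the enzyme that attaches O-GlcNAc to proteins, had the retained-intron transcript ENSMUST00000155792.1 at 3.44 to 6.38 FPKM in ChowCR and 5.89 to 16.5 FPKM in Chow. Its log2 difference was -1.05 (limma adjusted p 0.245). Another retained-intron transcript of Ogt, ENSMUST00000150161.5, went the other way, by 0.25 (SE 0.61). The 22-exon coding transcript of Ogt differed by -0.36 (SE 0.70). The retained-intron transcript of Pcmtd1 was at 0.162 to 2.63 FPKM in ChowCR and 3.08 to 5.92 FPKM in Chow, with no overlap (log2 difference -1.43), against -0.20 for the coding transcript. For Far1, which makes fatty alcohols for ether lipids, the retained-intron transcript ENSMUST00000155183.1 differed by -0.53, against -0.09 for the incomplete gene sum. Another retained-intron transcript of Far1, ENSMUST00000151133.1, differed by -0.17 (SE 0.24). Whether retained-intron forms as a class differed was not tested.

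The remaining transcripts named by the rule were coding. For Csnk1a1 the transcript ENSMUST00000165721.5 was at 8.67 to 16.1 FPKM in ChowCR and 14.9 to 22.8 FPKM in Chow (log2 difference -0.55, limma adjusted p 0.145). For Syngr1 the transcript that carries the split within Chow, ENSMUST00000009727.9, held 69.1 percent of the sum in ChowCR and 86.6 percent in Chow, and the second transcript had a log2 difference of 0.0039 (SE 0.24). The limma adjusted p of the split transcript was 0.241, and 0.0445 without Chow replicate 4, 1 of the 2 low libraries. With another library left out it reached up to 0.442. A transcript of Snx12, a sorting nexin, was at 2.34 to 9.24 FPKM in ChowCR and 9.68 to 12.8 FPKM in Chow, with no overlap (log2 difference -1.33, limma adjusted p 0.296). The Snx12 sum, which is incomplete, did overlap, at 2.34 to 12.96 FPKM in ChowCR and 10.4 to 13.3 FPKM in Chow (limma adjusted p 0.615). A minor transcript of Gpm6b, a neuronal and myelin membrane glycoprotein, differed by -0.58 while the Gpm6b sum differed by 0.14. A transcript of Ly6e, a GPI-anchored membrane protein, differed by -0.38 while its sum differed by 0.06. For Arpp19, a phosphatase inhibitor, the difference of -2.24 came with 73.1 FPKM in Chow replicate 1, and was -1.64 without that library.

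**Figure D3:**
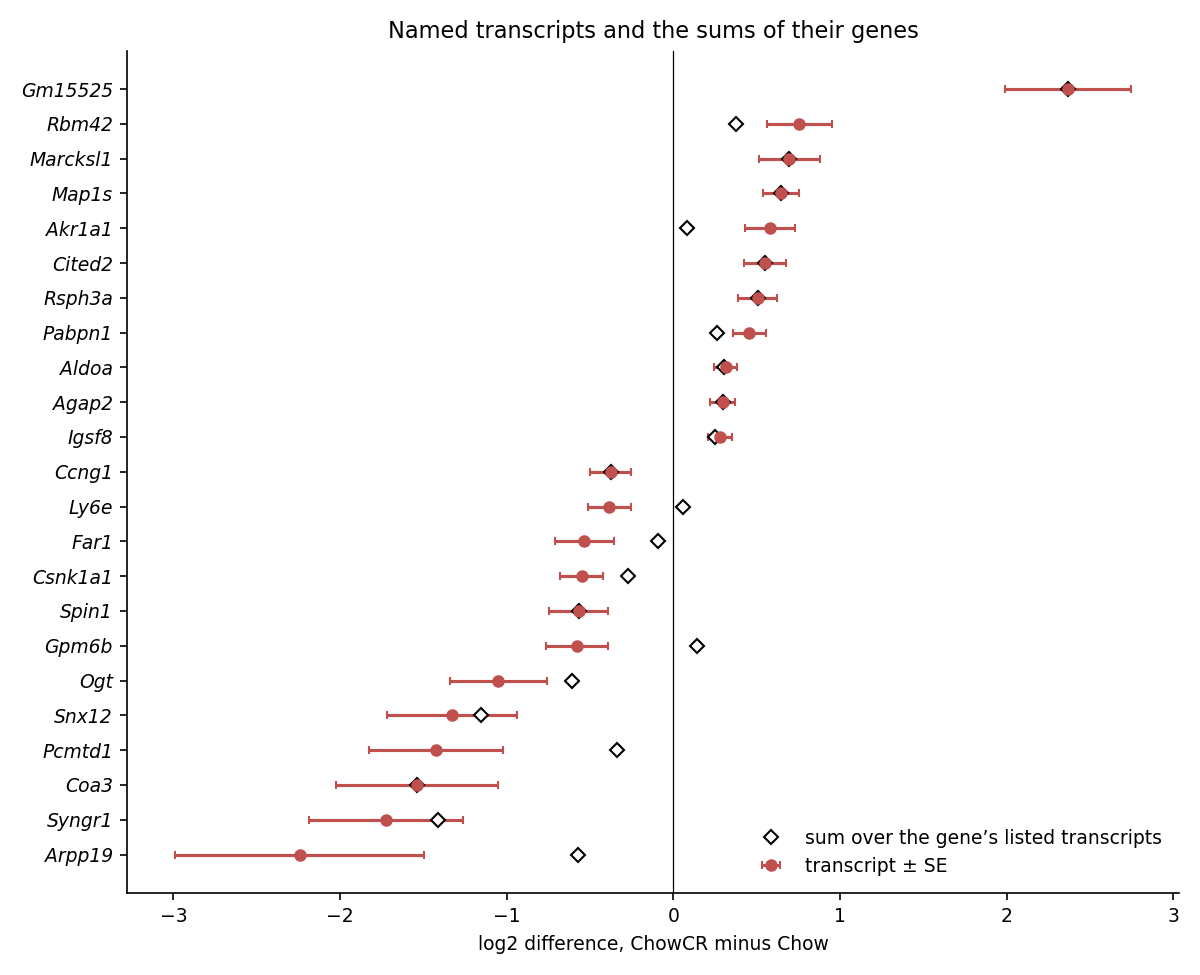
For 23 named transcripts (rows), the log2 difference ChowCR minus Chow is shown as a red point with its SE, and the difference of the summed transcripts of the same gene as an open diamond. Points and diamonds coincide for Map1s, Gm15525, Cited2 and other genes with 1 listed transcript, and part for Rbm42, Akr1a1, Pabpn1, Pcmtd1, Ogt, Gpm6b and Ly6e.

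Of the 6 gene sums that passed, 4 are not complete, and no fold change is given for them. In Grb2, Taf2 and Pcdhga10 some libraries do not list the gene at all, while Ttll7 is listed in all 12 through transcripts that not every library lists. Grb2, the adaptor that links growth factor and insulin receptors to Ras, was listed in 1 of 6 ChowCR libraries, at 30.1 FPKM, and in all 6 Chow libraries at 20.1, 30.6, 13.3, 31.8, 29.9 and 28.9 FPKM. The single ChowCR value was as high as the Chow values, and 17 of the 18 P diet libraries listed it. The limma adjusted p of the sum, with unlisted set to 0, was 0.0262.

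Taf2, a subunit of the general transcription factor TFIID, was listed in none of the ChowCR libraries and in all 6 Chow libraries at 4.44 to 6.94 FPKM (limma adjusted p 0.0274). Its transcript was listed in 7 of the 18 P diet libraries. Between 1 and 11 of the 12 libraries listed 28078 transcripts. Of these, 3 were listed in no ChowCR and all Chow libraries, and 1, of Slc38a10, in all ChowCR and no Chow library. The other 2 listed in Chow but not in ChowCR were transcripts of Tmem68 and Ints10, under 1 FPKM. The Slc38a10 transcript was also under 1 FPKM, at 0.162 to 0.711.

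Pcdhga10, a gamma-protocadherin that shares its last exons with the other genes of its cluster, was listed in all 6 ChowCR libraries at 2.54 to 6.51 FPKM and in 2 Chow libraries at 1.67 and 0.630 FPKM (limma adjusted p 0.0101). The P diets listed it in 17 of 18 libraries. Ttll7, a polyglutamylase that modifies tubulin, summed to 0.288 to 4.09 FPKM in ChowCR, against 22.7, 4.07, 16.9, 4.77, 19.8 and 26.9 FPKM in Chow (limma adjusted p 0.0274). Its largest transcript was unlisted in ChowCR replicates 1 and 3, at 2.23 to 2.80 FPKM in the other 4 ChowCR libraries, and at 22.1, 2.84, 16.5, 4.21, 16.9 and 24.7 FPKM in Chow. The listed ChowCR values were below all Chow values, of which 2 stood near them. In the P diets the Ttll7 sum ran from 2.94 to 16.01 FPKM, with a median of 4.13. None of these 4 genes is among the complete gene sums.

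**Figure D4:**
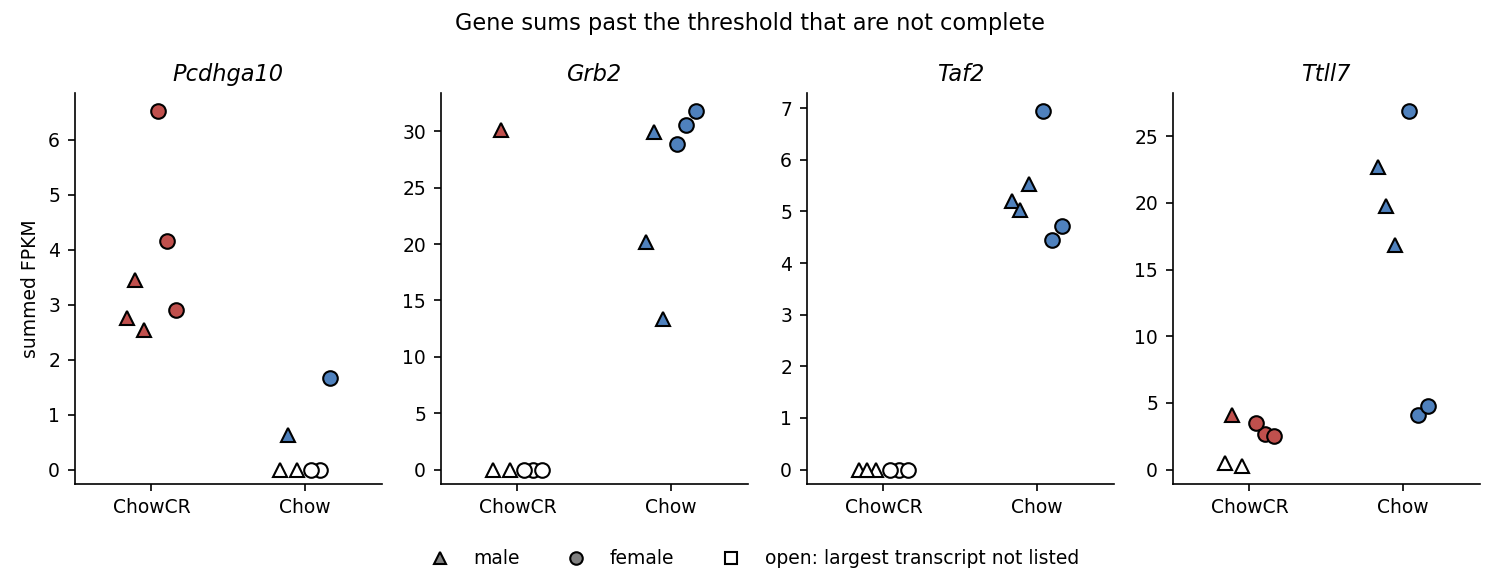
Summed FPKM (vertical axes) of 4 genes in each library, ChowCR left of Chow, with males as triangles and females as circles. Open symbols are libraries in which the largest transcript of the gene is not listed: 4 Chow libraries for Pcdhga10, 5 ChowCR libraries for Grb2, all 6 for Taf2 and 2 for Ttll7.

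Listing also sets most of the other gene sums that the rule names. In each of these the unlisted libraries enter at 0, and none passed. Lmo1, a LIM-only transcription regulator, was listed in 6 ChowCR and 3 Chow libraries. Pgr, the progesterone receptor, was listed in 2 and 6, Nfu1, which supplies iron-sulfur clusters in mitochondria, in 4 and 6, and Gls2, a glutaminase, in 4 and 6. Cdkn1a, the cell cycle inhibitor p21, was listed in 4 ChowCR libraries at 1.70 to 2.45 FPKM and in 6 Chow libraries at 2.45 to 4.53 FPKM. Mtus2 and Ubr7 were each listed in 4 ChowCR and 6 Chow libraries, and Rgs7, a regulator of G protein signalling, in 5 and 6.

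Cpne2, Spock1, Orc3, Mapk6 and Sin3b were listed in all 12 libraries, but through transcripts that not every library lists. Cpne2, a calcium-dependent membrane-binding copine, summed to 9.24 to 16.8 FPKM in ChowCR and to 0.308 to 7.70 FPKM in Chow, with no overlap. Sin3b, a scaffold of histone deacetylase complexes, summed to 22.1 to 29.8 FPKM in ChowCR and 9.43 to 23.5 FPKM in Chow. The adjusted p was 0.174 for Cpne2 and 0.291 for Sin3b in limma.

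The ChowCR difference was compared between the sexes for each gene sum, and 4 of 8130 passed (0.0492 percent). None of them is among the genes called for diet in both sexes together. Gm4459, a predicted gene, was at 42.4, 40.2 and 53.5 FPKM in Chow females and at 0 in all other ChowCR and Chow libraries. It was also at 0 in all 18 P diet libraries, so it entered the test only through the Chow females. Gm10031, also predicted, was at 0 in the 3 Chow males and between 8.14 and 20.2 FPKM in the other 9 libraries. In the P diets Gm10031 ran from 8.11 to 9.89 FPKM in both sexes, so only the Chow males were at 0. An exact 0 can be a failed estimate in such a table. Pomgnt2, a glycosyltransferase of dystroglycan, was unlisted in the 3 Chow females, and Ubr7 in 2 of the 3 ChowCR females. For Map1s the difference was 0.85 in females and 0.45 in males, a gap of 0.40 that did not pass (limma adjusted p 0.928).

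The 30 gene lists below were counted on the gene sum fit, incomplete sums included. No list had a member past the threshold except the microtubule list (Map1s higher) and the insulin list (Grb2 lower, through its listing). For comparison, 52.7 percent of all gene sums were higher in ChowCR, with a median log2 difference of 0.022. The members named are among those with the smallest p in their list or are fixed genes, and except for Map1s and Grb2 none of them passed.

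No nutrient-sensing gene passed apart from Grb2. Of 17 measured genes of sirtuins, AMPK and Foxo factors, 13 were higher and 4 lower, with a median log2 difference of 0.25, and over the 6 complete ones it was 0.22. Stk11, the kinase LKB1 that activates AMPK, was at 15.3 to 19.6 FPKM in ChowCR and 9.54 to 17.4 FPKM in Chow (log2 difference 0.32). Sirt1 was listed in 2 ChowCR and 3 Chow libraries, below 1 FPKM, Ppargc1a in 4 and 1, Foxo1 in 6 and 4, and Foxo3 in none. Of 17 mTOR and translation control genes, 10 were higher and 7 lower (median 0.026). Among them Sesn3, a stress-induced inhibitor of mTORC1, was at 7.57 to 10.3 FPKM in ChowCR and 10.3 to 12.8 FPKM in Chow (log2 difference -0.29), and Mtor was listed in 5 libraries of each group, below 3 FPKM.

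Of 16 insulin and IGF signalling genes, 8 were higher and 8 lower (median -0.013). Igf1 was listed in 1 library of each group and Igf1r in 2 ChowCR and 3 Chow libraries, so the table says little on either. Of 16 amino acid shortage and ATF4 target genes, 11 were higher and 5 lower (median 0.33, and 0.18 over the 6 complete ones). Slc3a2, the heavy chain of large neutral amino acid transporters, was at 35.45 to 47.45 FPKM in ChowCR and 29.97 to 34.05 FPKM in Chow, with no overlap (log2 difference 0.31, limma adjusted p 0.567). Cebpb, a transcription factor of stress and fasting, was listed at 0 in 1 ChowCR and 4 Chow libraries.

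No energy metabolism gene passed. Of 60 subunits of oxidative phosphorylation, 39 were higher and 21 lower (median 0.038), and Ndufb6 of complex I was at 42.9 to 51.2 FPKM in ChowCR and 27.9 to 48.7 FPKM in Chow (log2 difference 0.33). Of 14 glycolytic genes, 7 were higher and 7 lower (median 0.026). Beside Aldoa, Hk1, the hexokinase of brain, was at 80.3 to 100.2 FPKM in ChowCR and 54.1 to 89.6 FPKM in Chow (log2 difference 0.40, limma adjusted p 0.615). Ldhb was listed in 3 ChowCR libraries and no Chow library, and most of the Eno2 sum lay in transcripts that not every library lists.

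Ketone use and fatty acid oxidation gave 10 higher and 8 lower of 18 (median 0.022). Oxct1, which activates ketone bodies for use, summed to 30.96 to 71.3 FPKM in ChowCR and 35.9 to 87.3 FPKM in Chow (log2 difference -0.35). Pdk4, which spares glucose in fasting, was listed in 5 ChowCR and 4 Chow libraries, all under 4 FPKM, and Angptl4 in 2 of each. Of 20 cholesterol synthesis and uptake genes, 8 were higher and 12 lower (median -0.12), and of the 9 complete ones 2 were higher and 7 lower (median -0.18). Sc5d, a late enzyme of the pathway, was at 4.16 to 7.29 FPKM in ChowCR and 5.16 to 16.5 FPKM in Chow (log2 difference -0.57), and its highest value was in Chow replicate 1, without which the difference was -0.35.

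No protein quality control gene passed. The autophagy and lysosome list had 17 higher and 16 lower of 33 (median 0.017). In it Atp6v1a, the catalytic subunit of the lysosomal proton pump, summed to 61.1 to 116 FPKM in ChowCR (median 73.9) and 69.3 to 147 FPKM in Chow (median 132, log2 difference -0.55), and Optn was listed in 5 ChowCR libraries and 1 Chow library. Of 19 proteasome subunits, 13 were higher and 6 lower (median 0.045), among them Psmb4 and Psmb6 with log2 differences of 0.19 and 0.16. The ER chaperone list had 6 higher and 13 lower of 19 (median -0.070), with Pdia6 at 21.01 to 33.1 FPKM in ChowCR and 26.1 to 42.8 FPKM in Chow (log2 difference -0.25). Hspa5, the main ER chaperone, was at 34.8 to 80.3 FPKM in ChowCR and 39.1 to 85.4 FPKM in Chow.

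Cytosolic heat shock genes were 10 higher and 10 lower of 20 (median -0.0062), and 5 higher and 7 lower of the 12 complete ones (median -0.11). Stip1, which links HSP70 to HSP90, was at 48.2 to 53.4 FPKM in ChowCR and 54.0 to 64.6 FPKM in Chow, with no overlap (log2 difference -0.19, limma adjusted p 0.627). Chordc1, a co-chaperone of HSP90, was at 15.6 to 21.1 FPKM in ChowCR and 14.01 to 27.8 FPKM in Chow (log2 difference -0.27). Its lowest value was in Chow replicate 1, without which the log2 difference was -0.38. Antioxidant enzymes were 13 higher and 9 lower of 22 (median 0.054), with Sod1 at 19.2 to 47.9 FPKM in ChowCR and 29.5 to 69.6 FPKM in Chow (log2 difference -0.55). Of 3 metallothioneins, 2 were higher (median 0.13), and Mt1 reached about the same high level in both groups, 212 FPKM in ChowCR and 220 FPKM in Chow. Of 18 cytosolic ribosomal protein genes, 11 were higher and 7 lower (median 0.061), and only 3 of them were complete.

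**Figure D5:**
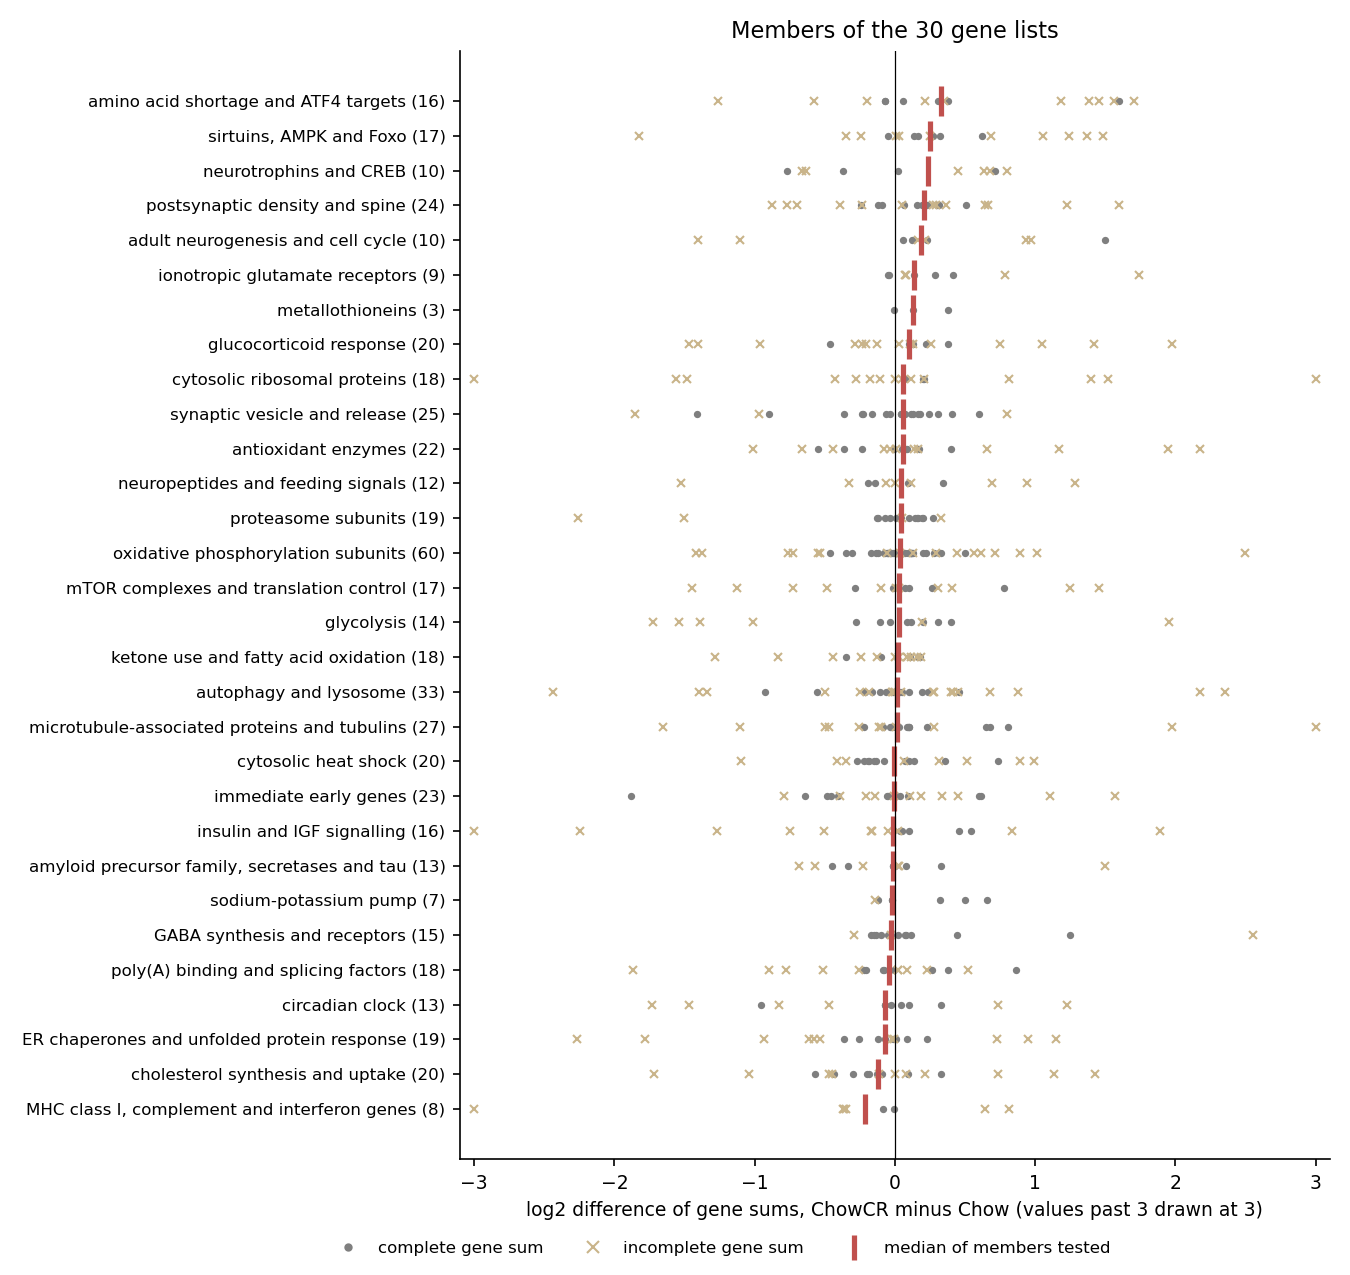
For each of 30 gene lists (rows, with the number of members tested), the log2 differences of the members' gene sums, ChowCR minus Chow, are drawn on the horizontal axis, dots for complete and crosses for incomplete sums, with the median in red. The medians lie between -0.22 and 0.33, every list has members on both sides of 0, and values past 3 are drawn at 3.

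No synaptic gene passed. The postsynaptic density list had 16 higher and 8 lower of 24 (median 0.21, and 0.19 over the 11 complete ones). Beside Agap2, Camk2b, the beta subunit of calcium/calmodulin-dependent kinase II, summed to 196.5 to 252 FPKM in ChowCR and 144 to 229.5 FPKM in Chow (log2 difference 0.23). Its lowest value was in Chow replicate 1, without which the log2 difference was 0.15. Of 25 synaptic vesicle and release genes, 15 were higher and 10 lower (median 0.056), and Syngr1 had the smallest p. Ionotropic glutamate receptors were 7 higher and 2 lower of 9 (median 0.13).

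GABA synthesis and receptor genes were 7 higher and 8 lower of 15 (median -0.026), with Slc32a1 as the member of smallest p. Of 10 neurotrophin and CREB genes, 6 were higher and 4 lower (median 0.24), while the 4 complete ones had a median of -0.17. Ntrk2, the BDNF receptor TrkB, was at 14.1 to 35.3 FPKM in ChowCR and 28.2 to 38.5 FPKM in Chow (log2 difference -0.37), and Bdnf, whose sum is incomplete, at 7.71 to 14.5 FPKM in ChowCR and 3.49 to 10.5 FPKM in Chow. Of 12 neuropeptide and feeding genes, 7 were higher and 5 lower (median 0.047). Npy, a peptide of interneurons that also drives feeding in the hypothalamus, was at 34.6 to 70.7 FPKM in ChowCR and 24.9 to 91.6 FPKM in Chow. Its highest value was in Chow replicate 1, and the log2 difference was 0.34 with that library and 0.58 without it.

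Map1s belongs to the cytoskeletal list. Of 27 microtubule-associated proteins and tubulins, 16 were higher and 11 lower (median 0.013), and 1, Map1s, passed. Tubb2a, a neuronal beta-tubulin, stood at 121 and 115 FPKM in ChowCR replicates 2 and 6, at 39.8 to 52.0 FPKM in the other 4 ChowCR libraries and at 25.8 to 50.8 FPKM in Chow (log2 difference 0.68, limma adjusted p 0.515). Map1b, a microtubule protein of growing axons, was at 24.3 to 26.7 FPKM in 4 ChowCR libraries, at 79.9 and 93.0 FPKM in replicates 5 and 6, and at 21.1 to 23.15 FPKM in Chow. All 6 ChowCR values lay above all 6 Chow values (log2 difference 0.80, limma adjusted p 0.788). Poly(A) binding and splicing factors were 8 higher and 10 lower of 18 (median -0.044), with Pabpn1 and Rbm42 on the higher side.

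No activity-induced, stress hormone or clock gene passed. Immediate early genes were 11 higher and 12 lower of 23 (median -0.0093), and Fos summed to 8.88 to 21.4 FPKM in ChowCR and 9.88 to 18.9 FPKM in Chow. Of 20 glucocorticoid response genes, 12 were higher and 8 lower (median 0.10). Sgk1, a kinase induced by glucocorticoids, summed to 20.6 to 45.9 FPKM in ChowCR and 24.6 to 61.8 FPKM in Chow, and Klf15 was listed in 3 ChowCR libraries and no Chow library. Of 13 clock genes, 5 were higher and 8 lower (median -0.068). Nr1d1, the clock repressor REV-ERB alpha, was at 19.8 to 37.1 FPKM in ChowCR and 18.1 to 32.5 FPKM in Chow (log2 difference 0.33), and the hour of dissection is not given.

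Neurogenesis, immune and disease lists were short. Adult neurogenesis and cell cycle genes were 8 higher and 2 lower of 10 (median 0.19), of which 4 were complete. Sox4, a factor of new neurons, was listed at 0 in 1 ChowCR and 5 Chow libraries. MHC class I, complement and interferon genes were 2 higher and 6 lower of 8 (median -0.21), and C1qa was listed in no ChowCR library and in 3 Chow libraries at 31.8 to 34.7 FPKM. The amyloid precursor, secretase and tau list had 6 higher and 7 lower of 13 (median -0.015), and the sodium-potassium pump list 3 higher and 4 lower of 7 (median -0.019, and 0.15 over the 6 complete ones).

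Markers of cell types were counted in 17 lists, and no marker passed. Neurons and glia of the hippocampus were present in both groups, with summed astrocyte markers of 1022 to 1265 FPKM in ChowCR and 941 to 1247 FPKM in Chow. Astrocyte markers were 10 higher and 1 lower of 11 (median log2 difference 0.36, and 0.16 over the 6 complete ones). Sox9, an astrocyte transcription factor, was at 3.44 to 6.04 FPKM in ChowCR and 2.03 to 6.12 FPKM in Chow. For Gfap the log2 difference was 0.24, and -0.08 without Chow replicate 1. Oligodendrocyte markers were 7 higher and 4 lower of 11 (median 0.20), those of their precursors 4 and 1 of 5 (median 0.59) and those of microglia 4 and 8 of 12 (median -0.023). Over complete sums these medians were 0.02 (5 genes), 0.59 (3) and -0.04 (4). Csf1r, the receptor microglia need to survive, was listed in 6 ChowCR and 3 Chow libraries.

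Among neuronal markers, those of CA1 pyramidal cells were 5 higher and 0 lower of 5 (median 0.54), and of CA3 pyramidal cells 2 and 1 of 3 (median 0.016). Those of dentate granule cells were 2 and 1 of 3 (median 0.58) and of interneurons 4 and 5 of 9 (median -0.14). Over complete sums the medians were 0.32 for CA1 (2 genes), 0.016 for CA3 (3), -0.35 for dentate (1) and 0.08 for interneurons (5). The sign thus changed for dentate and interneuron markers. For vascular markers most differences were below 0: endothelial ones 1 higher and 4 lower of 5 (median -0.18), and pericyte ones 0 and 2 of 2 (median -0.074). Cldn5, a tight junction protein of endothelium, was listed at 0 in 2 ChowCR libraries and at 9.33 to 12.15 FPKM in the other 4, against 11.4 to 18.2 FPKM in Chow. Haemoglobins summed to 42.3 to 170.5 FPKM in ChowCR and 101 to 226 FPKM in Chow.

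Markers of neighbouring tissue overlapped between groups. Choroid plexus markers summed to 56.2 to 8087 FPKM in ChowCR and 53.5 to 7087 FPKM in Chow, with 2 higher and 6 lower of 8 (median -0.13). Ependymal markers were 3 higher of 3 (median 0.37) and meningeal ones 1 higher and 2 lower of 3 (median -0.30). Thalamic markers were 2 higher of 2 (median 0.83), striatal ones 1 higher and 3 lower of 4 (median -0.31) and neocortical ones 2 and 2 of 4 (median 0.18). Only 1 neocortical marker had a complete sum, at -0.52, and no ependymal, meningeal, thalamic or striatal marker had one. With the log2 Ttr level as a covariate the calls were 2 transcripts and 6 gene sums, as without it. The part of other cell types in the remaining differences was not tested.

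The spread between libraries was compared last. The median SD of log2 complete gene sums was 0.31 in ChowCR and 0.37 in Chow, and 57.1 percent of genes had the smaller SD in ChowCR. Without Chow replicate 1 the Chow value was 0.31, and 51.9 percent of genes had the smaller SD in ChowCR.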

How the data were processed

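Whole hippocampus RNA was sequenced from stranded poly(A) libraries, 100 bases single-end on a HiSeq, per the labels' protocols. The submitters' processing notes name the genome build mm10 and these programs: DESeq2 1.16.1, featureCounts 1.4.6, StringTie 1.2.4, TopHat2 2.0.14 and bcl2fastq 2.18.0. The role of each and the use of strand were not given in the sources used here, which leaves genes that overlap on opposite strands uncertain. The authors deposited FPKM per transcript in 46109 rows, of which 43994 carry Ensembl identifiers.

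For each feature log2(FPKM + 0.5) was fitted in limma (3.58.1, under R 4.3.3) to group and sex over all 30 libraries, with a mean-variance trend in the empirical Bayes step. Tests were two-sided, with Benjamini-Hochberg adjustment over the whole fit. An unlisted transcript adds 0 to a gene sum, and 4254 of 8130 sums are 0 in at least 1 library. Complete gene sums were defined after the listing had been seen. The deposited FPKM hold no counts, so no counting interval is given. The procedure was tested on simulated data, with normal noise drawn independently for each feature and library. The simulation held no unlisted transcripts and no batch, so it cannot speak to either.

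The comparison, the 30 gene lists and the 17 marker lists were chosen with earlier results of these data known. Named were the features past an adjusted p of 0.05, a top-up to 12 in each direction by smallest p that skips predicted genes, list members with the smallest p, and a set of fixed genes. One gene that the rule names is not reported here. Tmem68, Ints10 and Slc38a10 were named after their values were seen. Coordinates are from GENCODE M21 (GRCm38), which holds 43416 of the 43994 identifiers. The alternatives tried were other pseudocounts, filters, scaling, covariates, weights, library sets and transcript sets.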

Additional observations from a re-analysis of the deposited data

Results flagged for a closer look

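Among 112 groups of 6 libraries checked for a library far from the rest, 14 held one past the 95 percent limit of Dixon's test. Chance alone gives about 1 in 20 groups where values are normally distributed. The test was run on FPKM without a log scale, and the groups share the same 12 libraries, so that rate is only a rough guide. Chow replicate 1 held 4 of them: Marcksl1 at 7.341 FPKM (the other 5 at 19.1 to 24.3), Gfap at 28.17 FPKM (94.6 to 124), Sc5d at 16.54 FPKM (5.16 to 7.56) and the Arpp19 transcript at 73.09 FPKM (1.88 to 13.1). In Chow replicate 5, Mt1 stood at 219.7 FPKM (34.15 to 58.9).

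In ChowCR, Gm15525 stood at 10.07 FPKM in replicate 3 (the other 5 at 1.93 to 3.87). Replicate 1 held 3 others: Slc32a1 at 7.069 FPKM (21.2 to 26.9), the Syngr1 transcript at 16.67 FPKM (7.41 to 9.58) and the Akr1a1 transcript at 6.291 FPKM (8.545 to 9.90). Replicate 2 was far from the rest for the Ogt transcript, at 6.383 FPKM (3.445 to 3.99), and the Arpp19 transcript, at 7.324 FPKM (0.157 to 2.57). Stk11 stood at 19.64 FPKM in replicate 4 (15.3 to 15.97), Sc5d at 7.29 FPKM in replicate 5 (4.16 to 5.08) and Atp6v1a at 116.3 FPKM in replicate 6 (61.1 to 80.06).

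The ChowCR minus Chow difference itself differed between females and males for 4 gene sums, tested by the interaction with sex in limma. The female minus male gap on the log2 scale was -6.5087 for Gm4459, -4.0342 for Gm10031, 5.6934 for Pomgnt2 and -3.4607 for Ubr7. Each rests on libraries in which the gene is at 0 or not listed.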

How the results depend on the processing

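Unknown depth, incomplete listing and title numbers that run with diet limit these results. The 2 called transcripts became 1 at a mean of at least 5 FPKM, 6 with no minimum mean, 0 with the 12 libraries alone, 1 in females alone (neither Map1s nor Gm15525), 0 among transcripts listed in the 12 libraries and 1 among protein-coding transcripts. Males alone gave 2, neither of them Map1s or Gm15525. The 6 called gene sums became 3 at a mean of at least 5 FPKM, 3 with no minimum mean, 1 with the 12 libraries alone, 2 in males alone (none of the 6), 2 from transcripts listed in all 30 libraries, 3 above 0 in every library and 2 among complete sums. Females alone gave 5, of which 1 was among the 6, and median-ratio scaling gave 5, without Map1s. Over all settings tried Pcdhga10 was called in 20 of 23, Grb2 in 10 of 24, Taf2 in 8 of 23 and Ttll7 in 12 of 25. Leaving out 1 library gave 2 to 4 transcripts (4 without Chow replicate 1 or 4) and 2 to 6 gene sums (2 or 3 without any one of ChowCR replicates 1 to 4 or Chow replicates 2, 5 and 6). The 4 calls by sex became 9 with the 12 libraries alone, 2 among complete sums, and 3 to 8 with 1 library left out (7 without Chow replicate 2, 8 without ChowCR replicate 6). The difference in spread ran from -0.089 to 0.0035 with 1 library left out, above 0 without Chow replicate 1. For the gene sum Gfap the log2 difference was -0.2148 in females and -0.0754 to 0.3352 with 1 library left out, below 0 without Chow replicate 1. For the gene sum Mt1 it was -0.0027 in females and for the gene sum Npy -0.3836 in males. List medians moved by more than the spread in 37 of 810 cases. The causes were not tested. The complete-sum and protein-coding alternatives were chosen after seeing the data. No paired analysis was possible because the labels give no shared replicate numbers.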
